A study of Mus musculus with 12 samples.

Results

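Fam13a, Mycl and 2010016I18Rik are 3 genes whose mRNA stood among the deepest falls of epididymal white adipose tissue (eWAT) in mice fed a high-fat diet. They were picked by symbol out of 22947 genes with values, for being lower with HFD than with ND, so that difference is given here as a description and was not tested. Messenger RNA purified from whole eWAT was sequenced from 3 mice in each of 4 groups, 12 libraries in all. All mice were male C57BL/6J, 21 weeks old, and had eaten their diet for 16 weeks. The ND group received the normal diet and the HFD group the high-fat diet. The CLE group received the high-fat diet with 1.5% (w/w) of an ethanol extract of chrysanthemum leaf, and the LU group the high-fat diet with 0.003% (w/w) of the flavone luteolin. The levels are FPKM, a count of fragments scaled by transcript length and library size, summed over the transcripts of a gene, and the differences are on the log2(FPKM + 1) scale.

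FAM13A is a cytoplasmic protein, and variants near the human gene are associated with body fat distribution, fasting insulin and lung disease. In fat cells it has been tied to insulin signalling through insulin receptor substrate 1. Mycl encodes L-Myc, a basic helix-loop-helix leucine zipper factor of the MYC family that binds E-box sequences as a dimer with MAX. 2010016I18Rik is a gene without an assigned function, which RefSeq lists as a long non-coding RNA.

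Fam13a (ENSMUSG00000037709) lies on chromosome 6 from 58932090 to 59024549 on the minus strand of GRCm38. Its chief transcript, Fam13a-201, has 18 exons and 5786 bases. Mycl (ENSMUSG00000028654) lies on chromosome 4 from 122995652 to 123002485 on the plus strand, and its coding transcripts Mycl-201 and Mycl-202 have 2 and 3 exons. 2010016I18Rik (ENSMUSG00000091575) lies on chromosome 3 from 106481982 to 106485913 on the minus strand. GENCODE gives its transcripts as antisense, retained-intron or processed RNA, and it overlaps the coding gene Dennd2d on the opposite strand, although the deposited table lists its rows as coding.

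The bases before the RefSeq start of each gene (GRCm38.p6) are printed 5′ to 3′ on the gene's own strand, to set the start regions of 3 genes with falls of like size side by side. Bases that GENCODE places in an exon of the gene are left out, and capitals mark matches on either strand to the motifs spelled out in the next paragraph, which were chosen after the levels had been seen. The stretches are chr6:59024550-59024752 (minus strand), chr4:122995812-122995930 (plus strand) and chr3:106485914-106486163 (minus strand).
Fam13a: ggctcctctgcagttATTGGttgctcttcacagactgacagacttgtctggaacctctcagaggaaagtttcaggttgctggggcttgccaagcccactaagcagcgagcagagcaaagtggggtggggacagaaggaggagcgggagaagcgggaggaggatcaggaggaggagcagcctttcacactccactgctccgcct
Mycl: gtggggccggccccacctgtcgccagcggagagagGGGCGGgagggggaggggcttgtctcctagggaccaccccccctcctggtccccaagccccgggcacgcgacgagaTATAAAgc
2010016I18Rik: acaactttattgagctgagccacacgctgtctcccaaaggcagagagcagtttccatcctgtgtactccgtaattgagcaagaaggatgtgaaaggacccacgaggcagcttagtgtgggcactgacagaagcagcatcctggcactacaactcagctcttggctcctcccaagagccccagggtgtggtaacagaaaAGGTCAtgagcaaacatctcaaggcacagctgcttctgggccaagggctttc

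Over the full 250 bases before the RefSeq start, no motif occurred in all 3 genes. Fam13a and 2010016I18Rik each held AGGTCA, the core that many nuclear receptors bind, which 14.0% of 32817 start windows of the same length held. In Fam13a it lay 8 to 3 bases before the RefSeq start, inside the first exon of GENCODE and so outside the stretch printed above, and in 2010016I18Rik it lay 52 to 47 bases before it. Both matches were preceded by the same 3 bases, as the short stretches at chr6:59024503-59024519 and chr3:106485957-106485974 show with AGGTCA in capitals.
Fam13a: tggaacaaaAGGTCAaa
2010016I18Rik: taacagaaaAGGTCAtga
The joined run AAAAGGTCA, noticed in these 2 genes and then searched, was in 0.329% of all windows. Mycl held GGGCGG, which 32.7% of windows held, and TATAAA 8 to 3 bases before its start, which 12.4% held. Fam13a held CCAAT, a motif in 33.8% of windows, at 2 places, as ATTGG on its own strand. The match 235 to 231 bases before the start is in the stretch printed above. The match 44 to 40 bases before it lies inside the first exon of GENCODE and so outside that stretch. The E-box CACGTG, in 6.02% of all windows, was in none of the 3. The GC content was 56.0% for Fam13a, 63.6% for Mycl and 52.8% for 2010016I18Rik, against a median of 52.4% over all windows. A match is a run of letters and does not show that a factor binds there.

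Some libraries stood apart before any comparison. A letter R of unstated meaning is in the labels of 4 libraries, and the table headers of these 4 also share a date-like number that no other library has. Those of ND were from mice 3 and 4, that of CLE was from mouse 4 and that of LU from mouse 2, while no HFD label has it. CLE mouse 11 had a summed level of 3 skeletal muscle genes of 11.6 FPKM, HFD mouse 12 had 4.05 FPKM, and the others had 0.107 to 0.509 FPKM. The 8 adipocyte markers, none at 0 in any library, summed to 32127 to 33729 FPKM in ND, 19216 to 21476 in HFD, 27811 to 31226 in CLE and 26219 to 31988 in LU. The 7 macrophage markers summed to 329 to 512 FPKM in ND, 2571 to 3012 in HFD, 604 to 969 in CLE and 1003 to 1166 in LU. The 5 mesothelial markers summed to 6.19 to 54.6 FPKM in ND, 0.372 to 4.33 in HFD, 5.83 to 9.70 in CLE and 6.92 to 14.9 in LU. The 5 progenitor markers overlapped between all groups at 359 to 641 FPKM. The 4 endothelial markers summed to 195 to 321 FPKM in ND, 156 to 265 in HFD, 247 to 366 in CLE and 282 to 340 in LU. Markers of liver reached at most 30.9 FPKM and those of the epididymal epithelium at most 5.76 FPKM. In RNA of whole tissue, fewer cells of a type and less RNA per cell cannot be told apart.

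Fam13a was the most abundant of the 3 genes. In ND it measured 157 FPKM in mouse 2, 86.7 in mouse 3 and 77.2 in mouse 4. In HFD it measured 7.86, 8.45 and 7.25 FPKM in mice 12, 15 and 18. The HFD libraries thus lay close together and far below every ND library, and the ND mean of 107 ± 43.7 FPKM (SD, n = 3) was 13.6-fold the HFD mean of 7.86 ± 0.600. In CLE it measured 95.3 FPKM in mouse 2, 91.2 in mouse 4 and 32.3 in mouse 11. In LU it measured 31.2, 56.3 and 16.7 FPKM in mice 2, 3 and 8. Every CLE and LU library was above every HFD library, CLE mice 2 and 4 fell inside the ND range, and no LU library did.

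Mycl was at 57.8 FPKM in ND mouse 2, 35.4 in mouse 3 and 31.9 in mouse 4. In HFD it was at 2.33, 2.25 and 2.90 FPKM in mice 12, 15 and 18, so that the ND mean of 41.7 ± 14.0 was 16.7-fold the HFD mean of 2.49 ± 0.357. The CLE libraries held 22.5, 16.3 and 14.4 FPKM in mice 2, 4 and 11. The LU libraries held 9.33, 17.97 and 6.00 FPKM in mice 2, 3 and 8. Neither group reached the lowest ND library or came down to the highest HFD library, and LU mouse 3 lay within the CLE range.

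2010016I18Rik was at 52.8 FPKM in ND mouse 2, 26.95 in mouse 3 and 28.1 in mouse 4. In HFD it was at 2.30, 2.002 and 1.91 FPKM in mice 12, 15 and 18, and the ND mean of 36.0 ± 14.6 was 17.4-fold the HFD mean of 2.07 ± 0.200. The CLE libraries held 12.4, 14.7 and 7.85 FPKM in mice 2, 4 and 11. The LU libraries held 9.29, 9.84 and 5.27 FPKM in mice 2, 3 and 8. All 6 supplemented mice lay between the groups fed the plain diets, with CLE and LU overlapping. The 3 genes were chosen for a wide gap between ND and HFD, which leaves room for values in between. The share of all genes whose groups lay apart was not counted, so the separations given for the 3 genes are descriptions.

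**Figure D1:**
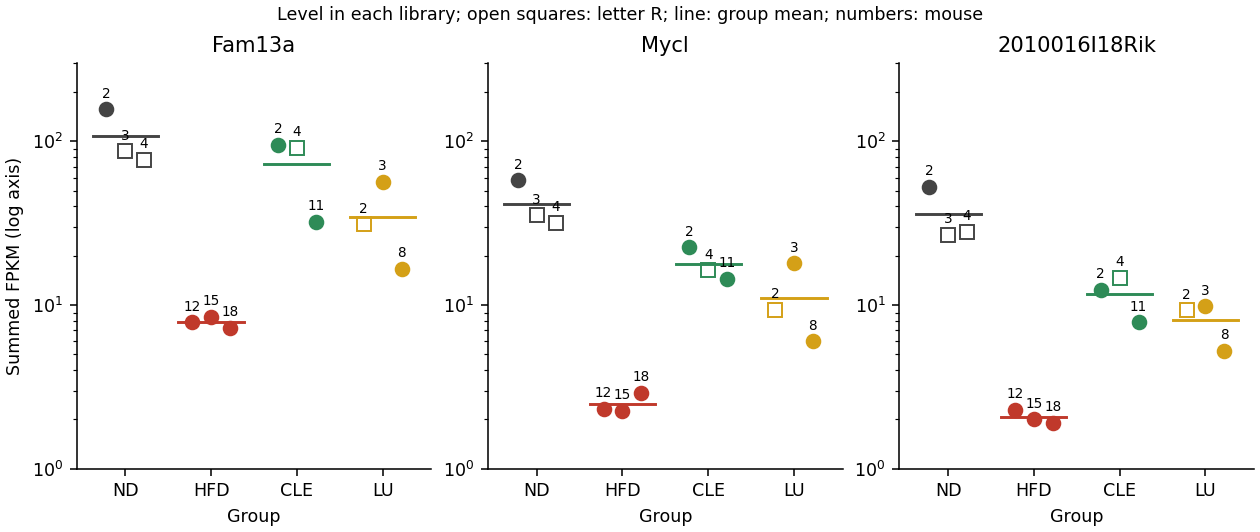
Summed FPKM on a log axis for each of the 3 genes in each library, grouped by diet; lines are group means, numbers are mouse numbers, and open squares are libraries whose label has the letter R. In all 3 panels the HFD libraries lie below all others, from 7.25 to 8.45 FPKM for Fam13a, and ND mouse 2 is the highest of its group.

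From ND to HFD, Mycl fell by 3.57, Fam13a fell by 3.54 and 2010016I18Rik fell by 3.52 on the log2 scale, which ranked them 3, 4 and 5 from the deepest among the 12775 genes tested. Just deeper were Acsm3, a medium-chain acyl-CoA synthetase, at -4.24 and Cyp2e1, a cytochrome P450, at -3.70. Just shallower were Cfd, which encodes the fat cell product adipsin, at -3.52 and Prss51 at -3.12. Without the 4 libraries with the letter R, which leaves mouse 2 as the 1 ND library, the differences were -4.08 for Mycl, -4.16 for Fam13a and -4.13 for 2010016I18Rik. In that contrast 10.8% of all genes tested were called lower. Relative to the geometric mean of the 8 adipocyte markers in each library, a scaling added after the data were seen, the differences were smaller, at -2.71 for Fam13a, -2.83 for Mycl and -2.81 for 2010016I18Rik. The adipocyte, macrophage and mesothelial marker levels given above moved with these falls, and their part in them was not tested. All 3 genes were above 1 FPKM in every library, so none passed the filter only through the group where it was high.

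The spread between mice also differed by group. The coefficient of variation of Fam13a was 7.63% in HFD, 40.8% in ND, 48.4% in CLE and 57.8% in LU. Mycl varied by 14.3% in HFD and by 24.0% to 55.7% in the other groups, and 2010016I18Rik by 9.66% in HFD and by 30.0% to 40.7% elsewhere. With 3 mice a group these are descriptions, but they mean that the single spread the model shares over groups is wider than that seen in HFD.

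Both supplements were compared with the HFD group, to ask whether the levels differed when the high-fat diet held CLE or LU. These comparisons share the HFD libraries with the contrast that chose the genes, so low HFD values by chance would raise all of them. All 3 genes were called higher in CLE than in HFD, where 6.33% of all genes tested were called higher. A call was an adjusted p under 0.05 from limma and a fold over 1.5. Fam13a had the largest rise of all genes tested, 2.91 on the log2 scale (SE 0.46, 95% interval 1.91 to 3.92, adjusted p = 0.000641), and its CLE mean was 72.9 ± 35.3 FPKM. Mycl rose by 2.40 (SE 0.32, 95% interval 1.70 to 3.10, adjusted p = 0.000210) to 17.7 ± 4.25 FPKM. 2010016I18Rik rose by 2.01 (SE 0.28, 95% interval 1.38 to 2.63, adjusted p = 0.000333) to 11.7 ± 3.50 FPKM. As ratios of mean FPKM these were 9.28-fold, 7.11-fold and 5.63-fold. Without CLE mouse 11, the library with muscle genes, the rises were 3.41, 2.53 and 2.24, and all 3 calls were kept.

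The LU group was also above HFD for all 3 genes, in a contrast where 4.81% of genes were called higher. Fam13a rose by 1.85 on the log2 scale (SE 0.46, 95% interval 0.85 to 2.86, adjusted p = 0.0123) to 34.7 ± 20.1 FPKM, 4.42-fold the HFD mean. Mycl rose by 1.67 (95% interval 0.97 to 2.37, adjusted p = 0.00324) to 11.1 ± 6.18 FPKM, 4.45-fold. 2010016I18Rik rose by 1.53 (95% interval 0.91 to 2.16, adjusted p = 0.00275) to 8.13 ± 2.50 FPKM, 3.93-fold. The Fam13a call depended on the libraries used. Without LU mouse 3 its rise was 1.43 with an adjusted p of 0.0521, and without the 4 libraries marked R it was 1.85 with an adjusted p of 0.0545. The calls of Mycl and 2010016I18Rik held in both cases.

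Scaled to the adipocyte markers, the rises in CLE were 2.24 for Fam13a, 1.83 for Mycl and 1.45 for 2010016I18Rik, and in LU 1.32, 1.22 and 1.10, each still called. Of the 8 adipocyte markers, 7 were called higher in CLE than in HFD and 3 in LU than in HFD, with medians of 0.66 and 0.51 on the log2 scale. All 7 macrophage markers were called lower in both contrasts, where 10.1% and 7.64% of all genes were, with medians of -2.31 and -1.65. Of the 5 mesothelial markers 1 was called higher in each contrast, and of the 4 endothelial markers 2 in CLE and 3 in LU. The part of these lists in the rises was not tested.

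**Figure D2:**
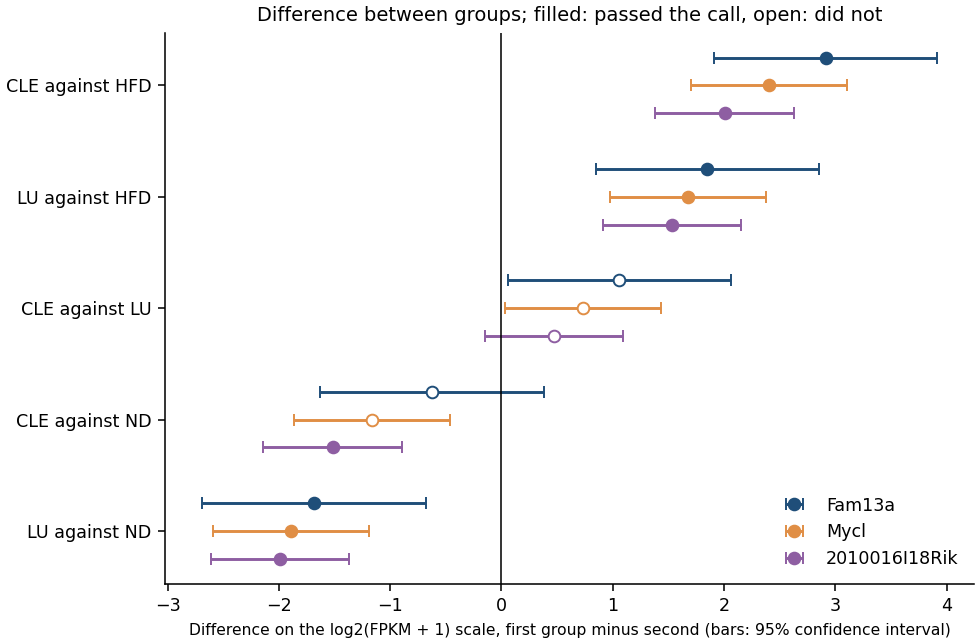
Difference on the log2(FPKM + 1) scale between the first and second group named, for each gene, with the 95% confidence interval from limma; filled points passed the call. All 3 genes are filled against HFD, none in CLE against LU, and against ND the LU points are all filled while in CLE only 2010016I18Rik is.

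CLE and LU were next compared with each other, the only contrast whose means are free of the ND and HFD libraries. The spread behind the limma intervals is still shared with those libraries. For Fam13a the SD on the log2 scale was 0.87 in CLE and 0.85 in LU, but 0.55 in ND and 0.10 in HFD. Its interval below is thus narrower than the spread of CLE and LU alone would give. The means were higher in CLE for all 3 genes, but none was called, and 0.00783% of all genes tested were, which is the single gene Xcl1. The difference was 1.06 on the log2 scale for Fam13a (95% interval 0.06 to 2.07, adjusted p = 0.891 by limma). It was 0.73 for Mycl (95% interval 0.03 to 1.43, adjusted p = 0.891 by limma) and 0.47 for 2010016I18Rik (95% interval -0.15 to 1.10, adjusted p = 0.892 by limma). The two-sided exact permutation test gave p = 0.2 for Fam13a, 0.3 for Mycl and 0.3 for 2010016I18Rik, where 0.1 is the smallest p that 3 mice against 3 allow. The groups overlapped for each gene. The intervals leave room for a CLE level well above the LU level as well as for little difference, so these mice do not show that both supplements act alike. Xcl1, a lymphocyte chemokine named here after its values were seen, was the exception in the other direction, with 0.0541 FPKM in CLE and 1.07 FPKM in LU, a low level.

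A last pair of comparisons asked how far the supplemented groups lay from ND. They share the ND libraries with the contrast that chose the genes, so high ND values by chance would deepen every fall from ND. In CLE against ND 0.853% of genes were called lower, and 1 of the 3 genes was among them. 2010016I18Rik was lower by 1.52 on the log2 scale (95% interval -2.14 to -0.89, adjusted p = 0.0168 by limma), its CLE mean being 32.4% of the ND mean. Mycl, at 42.6% of ND, differed by -1.16 (95% interval -1.86 to -0.46, adjusted p = 0.0572 by limma) and was not called. Fam13a, at 68.1% of ND, differed by -0.63 (95% interval -1.63 to 0.38, adjusted p = 0.445 by limma) with groups that overlapped, and by -0.12 without CLE mouse 11 (adjusted p = 0.901). The call of 2010016I18Rik was lost without ND mouse 2, where the difference was -1.21 and the adjusted p 0.0515, and without CLE mouse 11, where they were -1.28 and 0.0578. That of Mycl was gained without LU mouse 3 or 8, with an adjusted p of 0.0250 or 0.0336.

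In LU against ND all 3 genes were called lower, in a contrast where 1.62% of genes were. The LU means were 32.4% of ND for Fam13a, 26.6% for Mycl and 22.6% for 2010016I18Rik. The differences were -1.69 for Fam13a (adjusted p = 0.0337), -1.89 for Mycl (adjusted p = 0.00395) and -1.99 for 2010016I18Rik (adjusted p = 0.00190). The Fam13a call was lost in 9 of 28 alternatives. Leaving out LU mouse 8 gave -1.26 with an adjusted p of 0.130, and leaving out ND mouse 2, the highest library, gave -1.38 with an adjusted p of 0.122. It was also lost without ND mouse 3, at -1.80 with an adjusted p of 0.0588, and without LU mouse 2, at -1.69 with an adjusted p of 0.0842, so the difference did not shrink there. Macrophage markers were called higher than ND for 6 of 7 genes in CLE and 7 of 7 in LU, against 2.06% and 4.97% of all genes. Adipocyte markers were called lower for 0 of 8 in CLE and 1 of 8 in LU, and the part of these in the remaining distance was not tested.

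The order of the means was ND, CLE, LU and HFD for each of the 3 genes, but the share of the ND level that each reached was not the same. To set the genes against each other without library scaling, the ratio of their FPKM was taken within each library. Fam13a over 2010016I18Rik was 2.97, 3.22 and 2.75 in ND mice 2, 3 and 4. It was 3.42, 4.22 and 3.79 in HFD mice 12, 15 and 18, and 7.67, 6.20 and 4.11 in CLE mice 2, 4 and 11. In LU mice 2, 3 and 8 it was 3.35, 5.72 and 3.16. All 3 CLE ratios thus lay above all ND ratios, with means of 5.99 ± 1.79 and 2.98 ± 0.236 (exact two-sided permutation p = 0.1, the smallest possible, and 0.45 adjusted over 9 comparisons of ratios). Fam13a over Mycl averaged 2.53 ± 0.164 in ND, 3.21 ± 0.646 in HFD, 4.02 ± 1.69 in CLE and 3.08 ± 0.285 in LU. Its LU ratios were all above its ND ratios (exact permutation p = 0.1, adjusted 0.45). Mycl over 2010016I18Rik stayed between 1.00 and 1.84 in all libraries, and CLE, LU and ND overlapped. The exact test of 3 mice against 3 cannot pass the threshold, and no model was fitted to the ratios.

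**Figure D3:**
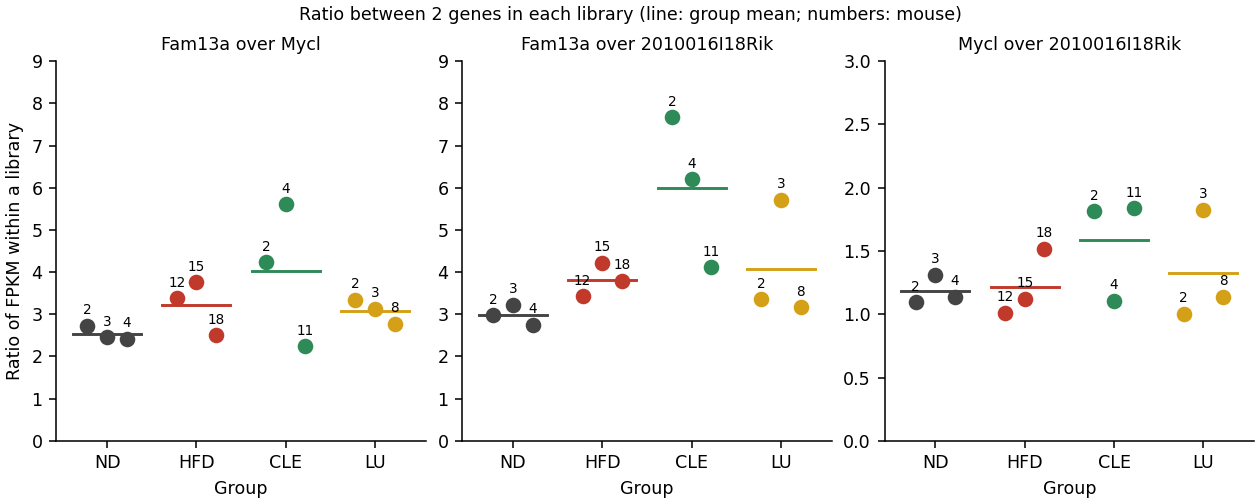
Ratio of FPKM between each pair of genes within a library, by group, with group means as lines and mouse numbers beside the points. For Fam13a over 2010016I18Rik, CLE mice 2 and 4 stand highest at 7.67 and 6.20, while the ND mice lie between 2.75 and 3.22.

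The 3 genes, which lie on 3 chromosomes, varied together from mouse to mouse. Over the 12 libraries, which share the group differences that chose the genes, Pearson's r of log2(FPKM + 1) was 0.968 for Fam13a with Mycl, 0.948 for Fam13a with 2010016I18Rik and 0.975 for Mycl with 2010016I18Rik. With the group mean subtracted from each library the values were 0.848, 0.899 and 0.745. ND mouse 2 was the highest of its group for all 3 genes, CLE mouse 11 the lowest of CLE, LU mouse 3 the highest of LU and LU mouse 8 the lowest. The lowest of ND and the highest of CLE were not the same mouse for all 3 genes. In HFD the highest was mouse 15 for Fam13a, mouse 18 for Mycl and mouse 12 for 2010016I18Rik. CLE mouse 11 and LU mouse 8 also had the highest macrophage marker sum of their groups, at 969 and 1166 FPKM. In ND that sum was highest in mouse 3, at 512 FPKM, which was the lowest of ND for 2010016I18Rik only. In HFD it was highest in mouse 12, at 3012 FPKM, which was the highest of HFD for 2010016I18Rik. Deviations of Fam13a correlated at 0.654 with those of the adipocyte markers and at -0.703 with those of the macrophage markers. For Mycl these were 0.528 and -0.541, and for 2010016I18Rik 0.325 and -0.6. These are descriptions over 12 libraries in 4 groups, and the part of the cell types in them was not tested.

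Among all genes tested, those most like Fam13a over the 12 libraries were Isca1, for iron-sulfur cluster assembly (r = 0.987), Adipor2, an adiponectin receptor (r = 0.98), Clpb (r = 0.98), Nrg4, a fat-secreted growth factor (r = 0.979), and Acadsb, a short branched-chain acyl-CoA dehydrogenase (r = 0.978). Nrg4 had means of 89.0 FPKM in ND, 22.6 in HFD, 70.7 in CLE and 49.5 in LU, the same order as Fam13a over a narrower range. Those most like Mycl were Slc1a3, a glutamate transporter (r = 0.988), H2-Ke6 (r = 0.987), Ybx3 (r = 0.986), Lrrc58 (r = 0.983) and Csad, of taurine synthesis (r = 0.983). Those most like 2010016I18Rik were Gpx3, a secreted glutathione peroxidase (r = 0.99), Rnpc3 (r = 0.99), Trit1 (r = 0.988), Ces1f (r = 0.987) and 0610030E20Rik (r = 0.987). Gpx3 had means of 399 FPKM in ND, 65.7 in HFD, 189 in CLE and 164 in LU. Of these 15 genes only Trit1, a neighbour of Mycl on chromosome 4, is also among the genomic neighbours examined.

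By deviations from the group means alone, the closest to Fam13a were Flvcr2 (r = 0.969), Isca1 (r = 0.961), A730011C13Rik (r = 0.955), Acsm3 (r = 0.945) and Rnft1 (r = 0.941). Isca1 was thus among the 5 by both measures. Close to Mycl were Irs1, the insulin receptor substrate (r = 0.938), A730011C13Rik (r = 0.937), Cep112 (r = 0.935) and Crls1, the cardiolipin synthase (r = 0.928). The closest to 2010016I18Rik were Man2a1 (r = 0.975), Jmy (r = 0.957), Rnpc3 (r = 0.953), Osbpl11 (r = 0.953) and Tfpi (r = 0.947). Rnft1, Man2a1 and Jmy had group means within a narrow range, 24.7 to 27.5, 25.8 to 31.6 and 5.12 to 6.30 FPKM, without the order of ND, CLE, LU and HFD that the 3 genes had.

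The transcripts behind the sums differed in kind. Of 15 rows for Fam13a 4 passed the filter of at least 1 FPKM in at least 3 libraries, of 8 for Mycl 3 did, and of 7 for 2010016I18Rik 4 did. How the quantification divides reads among overlapping transcripts is an estimate, so shares are less certain than sums. The coding transcript Fam13a-201 held 84.55% to 95.48% of the Fam13a sum in every library, so the gene's pattern was the pattern of this transcript. It measured 146, 81.3 and 72.0 FPKM in the ND mice, 6.94, 8.07 and 6.50 in the HFD mice, 87.0, 83.4 and 29.8 in the CLE mice, and 26.3, 51.7 and 15.7 in the LU mice. Its rise of 2.91 in CLE against HFD was called (adjusted p = 0.00477 by limma over 37646 rows, of which 3.24% were called higher). Its rise of 1.82 in LU against HFD was not (adjusted p = 0.0511), in a contrast where 2.16% of rows were called higher.

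Mycl was shared mostly among 3 rows, the coding transcripts Mycl-202 and Mycl-201 and an assembled row matched to Mycl-205, a transcript annotated as not coding. Mycl-202 held 18.49% to 54.48% of the sum, Mycl-201 18.66% to 43.77% and the assembled row 15.96% to 34.57%. In HFD mouse 18 the annotated row of Mycl-205 held another 18.84%, at 0.547 FPKM. The assembled row ran to 123002594, past the annotated end of the gene. Mycl-202 measured 29.4, 12.4 and 11.1 FPKM in ND mice 2, 3 and 4, 0.635, 1.23 and 0.537 in HFD mice 12, 15 and 18, 9.98, 7.27 and 5.78 in CLE mice 2, 4 and 11, and 4.29, 8.57 and 1.86 in LU mice 2, 3 and 8. All 3 rows were called higher in CLE than in HFD, with rises of 2.26, 1.52 and 1.94. In LU against HFD only the assembled row was called, with a rise of 1.07 (adjusted p = 0.0144 by limma). Mycl-202, at 1.57, and Mycl-201, at 1.17, had adjusted p-values of 0.0663 and 0.0509. Between CLE and LU the assembled row differed by 0.87 (95% interval 0.42 to 1.32, adjusted p = 0.659 by limma), and no row of the 3 genes was called, as against 0.0159% of all rows.

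For 2010016I18Rik the largest shares fell to 2010016I18Rik-202, an unspliced transcript annotated as a retained intron, with 25.98% to 52.81%, and to an assembled row matched to it, with 21.68% to 62.32%. The assembled row reached down to 106475171, past the annotated 3′ end of this minus-strand gene at 106481982. Both rose against HFD, by 1.87 and 1.37 in CLE and by 1.44 and 1.02 in LU, and all 4 differences were called. The spliced antisense transcript 2010016I18Rik-203, of 2 exons and 841 bases, had an annotated row and an assembled row matched to it. The annotated row measured 10.49, 5.35 and 3.90 FPKM in ND mice 2, 3 and 4, 13.87% to 19.86% of the sum. It measured 1.13, 1.58 and 0.275 FPKM in CLE mice 2, 4 and 11 and 0.0301, 0.977 and 0.123 in LU mice 2, 3 and 8. In all 3 HFD mice the annotated row was listed below 0.0001 FPKM. The assembled row was at 0.0692, 0.00041 and 0.481 FPKM in HFD mice 12, 15 and 18, and held 25.12% of the sum in HFD mouse 18. It spans 10773 bases on the genome, against 1835 for the annotated row. These estimates thus cannot show whether the annotated transcript was present in HFD or absent from it. The annotated row passed the filter through the ND mice and CLE mice 2 and 4, and no difference is given for it at the main setting. Of the other rows, 4 were called lower in LU than in ND, where 0.393% of all rows were. These were Mycl-201 at -1.76 (adjusted p = 0.0249 by limma), the assembled row of Mycl-205 at -1.59 (adjusted p = 0.0105), 2010016I18Rik-202 at -1.85 (adjusted p = 0.0242) and its assembled row at -1.27 (adjusted p = 0.0318). In CLE against ND no row of the 3 genes was called lower, where 0.0531% of all rows were.

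**Figure D4:**
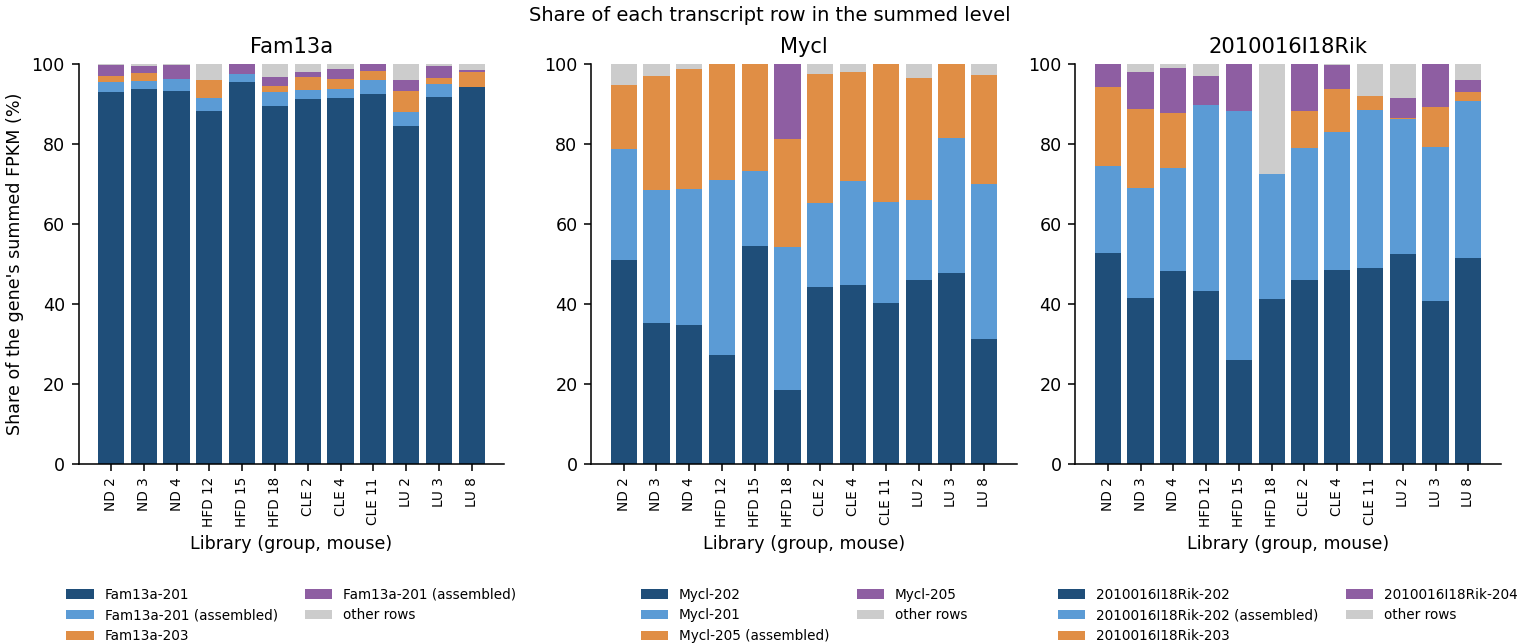
Share in percent of each transcript row in the summed FPKM of its gene, stacked for each library; grey is all remaining rows. Fam13a-201 fills 84.55% to 95.48% of every bar, Mycl is split among 3 rows, with a further 18.84% in annotated Mycl-205 (purple) in HFD mouse 18, and the annotated row of 2010016I18Rik-203 holds 13.87% to 19.86% in ND and is not seen in the HFD bars, where its assembled row is part of the grey.

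The genes around each of the 3 were compared for the same contrasts. Next to Fam13a, Herc3, a ubiquitin ligase 11692 bases away, went the other way, with means of 7.55 FPKM in ND, 11.9 in HFD, 8.78 in CLE and 8.78 in LU. Its differences from HFD were -0.40 in CLE and -0.40 in LU, below the fold required. Nap1l5 and Tigd2 were not called in these contrasts either. Gprin3, 322677 bases away, was called higher in CLE than in HFD, by 1.42 (adjusted p = 0.0392 by limma), with 19.6 ± 11.6 FPKM against 6.11 ± 2.53. In LU its difference from HFD was 0.91 (adjusted p = 0.180).

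Next to Mycl, Trit1, a tRNA-modifying isopentenyltransferase 14112 bases away, had means of 24.0 FPKM in ND, 8.41 in HFD, 16.2 in CLE and 14.2 in LU. It was called higher than HFD in CLE, by 0.87 (adjusted p = 0.00103 by limma), and in LU, by 0.68 (adjusted p = 0.00598 by limma). An assembled row that the table assigns to Trit1 runs over Mycl on the opposite strand, from 122982895 to 123019195, and was kept out of both sums. It was at 0.840 to 1.45 FPKM in ND and at no more than 0.0451 FPKM in HFD, so it was far weaker than Mycl. The nearest genes on the other side, 4933421A08Rik and Mfsd2a, and Bmp8b beyond Trit1 were too low to be tested.

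Dennd2d, which codes for a regulator of membrane traffic, overlaps 2010016I18Rik on the opposite strand. It had means of 8.01 ± 1.37 FPKM in ND, 2.22 ± 0.226 in HFD, 4.57 ± 0.844 in CLE and 4.04 ± 0.361 in LU. It was called higher than HFD by 0.78 in CLE (adjusted p = 0.000977 by limma) and by 0.64 in LU (adjusted p = 0.00459 by limma), and lower than ND by 0.69 and 0.83. The labels name a TruSeq RNA kit and no strand setting of the counting, so reads from 2010016I18Rik and Dennd2d cannot be told apart where they overlap. The longest Dennd2d row that overlaps it was at 1.04 to 1.28 FPKM in ND and 0.574 to 0.817 in HFD. The other overlapping rows were at no more than 0.483 FPKM in any library. The rest of the Dennd2d sum comes from rows that do not overlap 2010016I18Rik, and the part of shared reads was not tested. The next genes, Cept1 and Dram2, were not called in these contrasts, with differences from HFD of 0.09 and 0.25 in CLE and 0.20 and 0.10 in LU. Chil6 and Chil4 were too low to be tested.

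**Figure D5:**
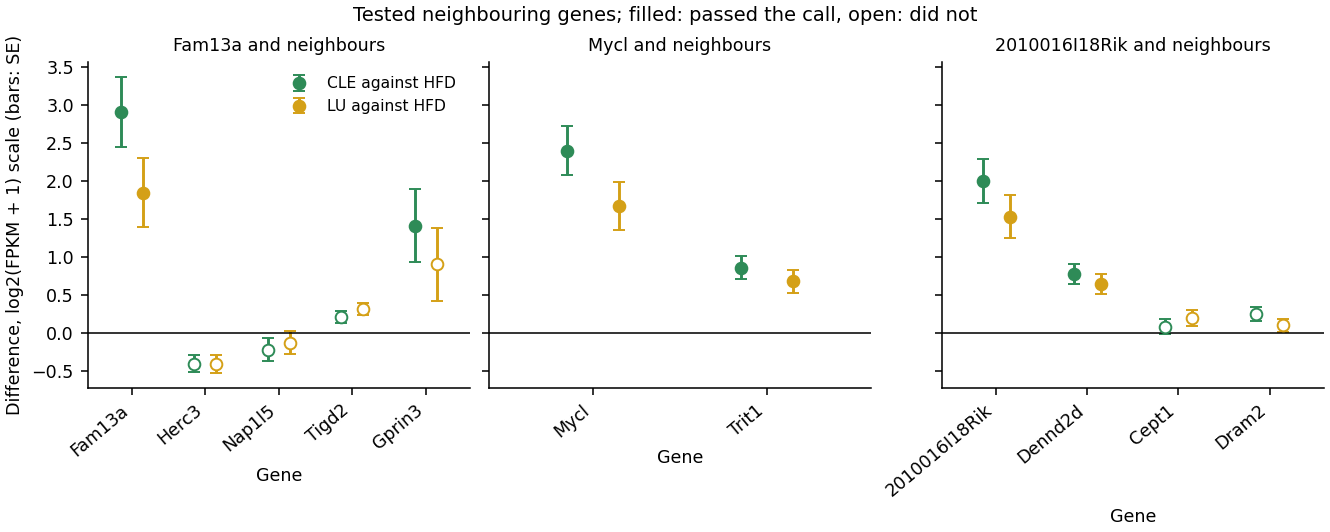
Difference from HFD on the log2(FPKM + 1) scale, with standard errors, for each of the 3 genes and the tested genes around it, in CLE (green) and LU (yellow); filled points passed the call. Trit1 and Dennd2d lie above 0 in both groups at 0.64 to 0.87, each under the gene it lies beside, and Herc3 lies below 0.

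The rest of each gene's family and partners was then examined with lists that hold the 3 genes themselves. Of 11 genes of the FAM13 family and partners of FAM13A, all tested, only Fam13a was called against HFD, in CLE and in LU. Of all genes, 6.33% and 4.81% were called higher in these contrasts. The medians of the list were -0.09 and -0.02 on the log2 scale, against 0.01 and 0.03 over all genes. Fam13a was itself chosen for its low HFD level, so being the only call does not mark it out from its list. The relatives of Fam13a did not share its direction, with Fam13b at 16.7 FPKM in HFD and 12.0 in CLE, a difference of -0.45 (adjusted p = 0.00164 by limma, under the fold required), and Fam13c at -0.35. Irs1, the docking protein of the insulin receptor, had means of 7.77 FPKM in ND, 2.91 in HFD, 4.51 in CLE and 4.04 in LU. Its difference from HFD was 0.49 in CLE (adjusted p = 0.0411 by limma, under the fold required) and 0.32 in LU, and it was called lower than ND in CLE, by 0.67, and in LU, by 0.84. Sirt1, Ctnnb1, Ppp2ca, Ppp2r1a, Rhoa, Rac1 and Cdc42, which act among others in deacetylation, Wnt signalling and dephosphorylation, differed from HFD by -0.40 to 0.19 in CLE and were not called.

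Of 13 genes of the MYC, MAX and MLX network 11 were tested, and Mycl was the only one called in CLE or LU against HFD. Of all genes, 6.33% and 4.81% were called higher there. Mycl was also the only one called lower than ND in LU, where 1.62% of all genes were. It too was chosen for its low HFD level, so being the only call does not mark it out from its list. Myc itself had means of 8.18 FPKM in ND, 9.15 in HFD, 7.48 in CLE and 6.95 in LU, and its differences from HFD were -0.27 in CLE and -0.35 in LU. Max, the shared partner, had means of 24.0 to 26.5 FPKM in the 4 groups. The antagonists Mxd1, Mxd4, Mxi1, Mnt and Mga, and the sugar-responsive branch of Mlx, Mlxip and Mlxipl, differed from HFD by -0.23 to 0.11 in CLE. Mycn and Mxd3 were below the filter, with group means of at most 0.340 and 0.883 FPKM. In HFD, where Mycl fell to 2.49 FPKM, Myc thus stood above it, whereas in ND Mycl stood above Myc.

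Of 13 genes of insulin signalling, all tested, 3 were called higher in CLE than in HFD and 1 in LU, against 6.33% and 4.81% of all genes, with medians of 0.22 and 0.19 against 0.01 and 0.03 over all genes. The calls in CLE were Irs2 at 0.93, Insr, the insulin receptor, at 0.73 and the kinase Akt2 at 0.61, and the call in LU was Irs2 at 0.73.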

How the data were processed

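RNA of epididymal adipose tissue was measured in 12 libraries. The authors deposited FPKM, 1 column per library, for 152210 transcripts; the submitters' processing notes name CASAVA 1.8.2, Bowtie2 2.2.3, TopHat2 2.0.12 and Cufflinks 2.2.1. The table has 15 FPKM columns, of which 3 belong to none of the samples and were left aside, and the column headed MD4 was taken as ND mouse 4 by inference. Columns with the authors' fold changes and p-values were not used. Among values above 0, 39.3% were under 0.0001 FPKM, so reads were not recovered and the depth is unknown. The totals over genes were 435095 to 455040 FPKM.

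Rows with an Ensembl transcript, plain or with class code = or j, were summed to 22947 genes and placed on GENCODE M21 (GRCm38). Start regions came from RefSeq (GRCm38.p6), where all 3 genes were matched. limma 3.58.1 (R 4.3.3) was fitted to log2(FPKM + 1) of 12775 genes with at least 1 FPKM in at least 3 libraries, all 12 libraries in 1 fit without covariates, with Benjamini-Hochberg adjustment within each contrast. The same fit was run on 37646 transcript rows. A call needed an adjusted p under 0.05 and a fold over 1.5. The method was tested on simulated data. Python 3.11.15 with pandas 2.3.3, numpy 2.4.6 and matplotlib 3.10.9 served for tables and figures. The labels name separate mice. The genes, the lists and the tests were chosen with earlier results of these data known. Named genes are the 3 genes, their list members and neighbours, and the 5 most correlated genes by each measure; of the insulin list, the 3 largest called changes in CLE against HFD were named. The results of 1 further gene list and of 1 correlated gene are not reported here. The authors' count-based test was not repeated, since the values are FPKM.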

Additional observations from a re-analysis of the deposited data

How the results depend on the processing

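All values are log2 differences unless given as counts. The alternatives were other pseudocounts, filters, scalings, weights and moderation, the letter R as a covariate, leaving out libraries, and rows in place of sums. In CLE against HFD all 3 genes kept their call in 27 of 27 alternatives, as did Mycl and 2010016I18Rik in LU against HFD, and none was called in CLE against LU in 27 of 27. Dropping the fold requirement could not remove a call. Leaving out a library of a group not compared kept the difference and changed only the spread. The comparisons with HFD all rest on the HFD libraries that helped choose the genes, so these counts do not test that choice. Calls were lost, with differences about as large or larger, with only the groups compared, at -1.52 for 2010016I18Rik in CLE against ND and at -1.69 for Fam13a in LU against ND, where Fam13a also lost its call without a filter, at -1.69, with the letter R as a covariate, at -1.71, and without the libraries with that letter, at -2.31. In LU against HFD Fam13a was at 1.85 without those libraries, which leaves 1 ND mouse, taken to vary like the other groups. Mycl was called in CLE against ND with a filter on a mean of 5 FPKM, at -1.16.

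Leaving out each library in turn moved Fam13a from 1.43 to 2.28 in LU against HFD and from -2.11 to -1.26 in LU against ND. In CLE against ND it moved Mycl from -1.34 to -0.91, 2010016I18Rik from -1.69 to -1.21 and the count of called genes from 119 to 498, against 372 with all libraries. That count was 127 without CLE mouse 11, 230 without CLE mouse 4 and 119 without ND mouse 2. Genes called in CLE against LU went from 0 to 1, and were 0 with the letter R as a covariate, median ratios, quantile normalization or a pseudocount of 0.1. In that contrast 672 of 12775 genes had an unadjusted p under 0.05 in limma. That is about the share such a threshold passes when no gene differs, and it does not show that the groups are alike.

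The replicate block by mouse number gave -1.45 for 2010016I18Rik in CLE against ND, and -1.46 for Fam13a and -1.72 for Mycl in LU against ND, all without a call. It left 1 called gene in CLE against ND and 208 in LU against ND, against 372 and 842. The numbers are only names: same-numbered libraries correlated at -0.099 and -0.002 in CLE against ND and at 0.097 and 0.189 in LU against ND. The block uses only libraries whose number occurs in both groups.

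With a pseudocount of 0.1, transcript rows gave -2.06 for Mycl-201 and -1.51 for the assembled row of 2010016I18Rik-202 in LU against ND. Both were without a call. In CLE against HFD the annotated row of 2010016I18Rik-203 gave 3.20 and passed the call, which it did not pass at the main setting. That size is set by the constant added, since the row is near 0 in HFD. The row entered the fit through the ND mice and CLE mice 2 and 4, where it was high. Its call therefore cannot decide whether it rose in CLE. Fam13a-203 reversed to 0.46 in LU against ND and 2010016I18Rik-204 to -0.0361 in CLE against LU, neither called. The causes were not tested. FPKM carry no depth, so no counting error is given, and 3 mice a group limit every interval.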
